A study of Mus musculus with 9 samples.

Results

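The cytosolic ribosomal protein genes were taken as all symbols of the gene table that begin with Rpl or Rps followed by a digit. Symbols that contain -ps, a mark of pseudogenes, and the Rps6k kinases were left out. The rule gave 85 of the 15074 genes, 51 with an Rpl symbol and 34 with an Rps symbol. Of these, 73 are the canonical genes, 43 of the large subunit and 30 of the small subunit. The other 12 are paralogs or related genes (Rpl3l, Rpl7l1, Rpl10l, Rpl22l1, Rpl32l, Rpl36al, Rpl37rt, Rpl39l, Rps4l, Rps19bp1, Rps27l and Rps27rt), and the rule keeps Rps19bp1 although it encodes a partner of RPS19 and not a ribosomal protein. Of the 85, 82 are annotated as protein-coding in GENCODE M21. Rpl32l, Rpl37rt and Rps4l are annotated there as processed pseudogenes, although their symbols do not say so. The rule used symbols alone, and no expression value entered it.

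The ribosome that translates nuclear mRNAs is built from a small and a large subunit, each an RNA scaffold covered with many proteins that are needed in nearly equal numbers. Their genes sit on many chromosomes, are among the most actively transcribed in growing cells, and most of their mRNAs start with a short pyrimidine stretch (the 5′ TOP motif) through which growth signals control their translation. Some proteins have a second gene copy that is used in particular tissues, such as RPL39L and RPL10L in male germ cells and RPL3L in striated muscle. In embryonic stem cells (ESCs), ribosomal protein mRNAs are abundant, and the exit from pluripotency goes along with changes in protein synthesis.

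RNA-seq values came from mouse J1 ESCs of 3 lines, sampled at days 0, 2 and 4 of differentiation, with 1 library for each of the 9 conditions. WT is the unmodified line, 1KO is Dnmt1-/-, and 1KO+1CI is Dnmt1-/- carrying a transgene for catalytically inactive DNMT1 with the C1229S change, driven by a CAG promoter and linked to zeocin resistance. Day 0 cells grew on mitomycin-treated feeder fibroblasts, most of which were removed by plating before differentiation without LIF through embryoid bodies and adherent culture. Values are FPKM, the fragments or reads per 1000 transcript bases, scaled to the size of the library. Each condition is 1 library here, so a difference between 2 libraries has no test. More than 1 transgenic clone was established, and the 3 1KO+1CI columns of the table carry the same number in their names, so that all 1KO+1CI values may come from a single clone. The tests below come from an additive limma fit of line and day to log2(FPKM + 1) in all 9 libraries, in which the other days stand in for repeats of a line and the other lines for repeats of a day. A call is a Benjamini-Hochberg adjusted p under 0.05 over all 15074 genes, and its error measures how far lines and days depart from additivity, not the spread between cultures.

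Dnmt1 was at 48.5 to 80.4 FPKM for WT, 12.3 to 17.4 for 1KO and 129 to 315 for 1KO+1CI, in the order the labels give. Spacing of the FPKM values put the libraries at 20100000 to 28000000 counted reads if 1 step is 1 read. The summed FPKM of 6 ESC markers (Pou5f1, Nanog, Sox2, Zfp42, Klf4, Esrrb) lay between 896 and 1708 in the 9 libraries, with Pou5f1 alone at 632 to 1008, and it does not show how the others moved. In the additive fit Klf4 and Nanog were called lower at day 2 than at day 0, and Esrrb, Klf4, Sox2 and Zfp42 lower at day 4 than at day 2 and at day 0. That of 5 feeder fibroblast markers (Col1a1, Col1a2, Col3a1, Dcn, Postn) was 84.4 to 180 at day 0, and 9.14 to 20.9 and 9.70 to 21.1 at the later days. That of 7 primitive endoderm markers (Gata4, Gata6, Sox17, Sox7, Foxa2, Col4a1, Lamb1) was 36.2 to 84.1 in 8 libraries and 118 in 1KO+1CI at day 4. Most of this sum was Col4a1 (14.4 to 46.7 FPKM) and Lamb1 (20.1 to 62.7), and the other markers stood at 2.46 FPKM or less in every library. No gene used here had a value of 0 in any library, so no marker could be listed at 0, and shares of all genes cover the same genes. Lum, a further feeder marker on the list, had no entry. In bulk RNA, fewer cells of a type and less RNA per cell cannot be told apart.

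The sequences of Rpl39l, the member that differed most between lines, and of its X-linked parent Rpl39 are shown first because reads of near-identical copies can be misassigned. RPL39 is the smallest protein of the large subunit apart from RPL41 and lies in the exit tunnel. The coding sequences (GENCODE M21, GRCm38), 5′ to 3′, with capitals at the bases that differ between the copies, read as follows.
Rpl39: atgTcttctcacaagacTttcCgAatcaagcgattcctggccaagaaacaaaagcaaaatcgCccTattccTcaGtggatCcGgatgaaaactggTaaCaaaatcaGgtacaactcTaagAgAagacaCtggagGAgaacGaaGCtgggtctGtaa
Rpl39l: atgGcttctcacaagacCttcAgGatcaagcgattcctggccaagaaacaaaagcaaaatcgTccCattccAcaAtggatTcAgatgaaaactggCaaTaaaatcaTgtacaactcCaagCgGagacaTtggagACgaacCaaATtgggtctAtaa
The copies differ at 23 of 156 bases (85.3% identity), the differences run along most of the frame, and none of the 100-base windows of Rpl39l transcripts occurs in another annotated gene. The Rpl39 transcripts share 1.75% of such windows.

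The start region of Rpl39l on the plus strand (GRCm38, chr16:10169978-10170247, from 250 bases before to 20 after the annotated start) is shown with that of Rpl39 on the minus strand (chrX:37085203-37085472), both from RefSeq on GRCm38.p6 and with CpG dinucleotides in capitals, since the lines differ in a DNA methyltransferase. Methylation was not measured in the files used here.
Rpl39l: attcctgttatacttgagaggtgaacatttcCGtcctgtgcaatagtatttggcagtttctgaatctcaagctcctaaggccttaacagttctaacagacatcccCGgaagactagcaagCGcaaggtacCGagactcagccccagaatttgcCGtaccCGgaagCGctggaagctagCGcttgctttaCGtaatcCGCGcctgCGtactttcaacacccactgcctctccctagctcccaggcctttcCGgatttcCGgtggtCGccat
Rpl39: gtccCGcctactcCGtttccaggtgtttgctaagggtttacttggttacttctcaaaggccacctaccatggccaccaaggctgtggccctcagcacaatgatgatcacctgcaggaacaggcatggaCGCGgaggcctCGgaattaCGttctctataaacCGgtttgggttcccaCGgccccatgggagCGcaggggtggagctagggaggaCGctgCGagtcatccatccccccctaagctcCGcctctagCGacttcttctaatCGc
The Rpl39l stretch holds 15 CpG and the Rpl39 stretch 14. Over the full 300 bases of the RefSeq promoter table, which reach 50 bases past the start, each holds 17, against a median of 21 over 77 promoters of 65 members and of 7 over all 32851 promoters.

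Member promoters shared letters that the symbol rule did not use. A run of at least 8 pyrimidines within 50 bases of the start was present in 76.6% of member promoters and in 35.7% of all promoters. CTTTCC stood on either strand in 49.4% against 26.6%, TCTCGCG in 19.5% against 2.56% and ATGGCGG in 18.2% against 4.05%. CTTTTC (23.4% against 21.8%) and CACGTG (10.4% against 7.15%) stood closer to the share of all promoters. The windows from 50 bases before to 20 after the start of Rps16 (chr7:28350639-28350708) and Rps19 (chr7:24884542-24884611), both on the plus strand and both members that moved with day below, are given as examples, again with CpG in capitals.
Rps16: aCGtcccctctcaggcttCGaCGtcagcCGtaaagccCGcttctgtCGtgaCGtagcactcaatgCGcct
Rps19: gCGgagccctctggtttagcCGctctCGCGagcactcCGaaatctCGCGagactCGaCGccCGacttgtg
These matches describe the letters of the windows, and binding of a factor was not measured.

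The 85 genes together held 15.0% to 18.6% of the summed FPKM of a library, although they are few among the genes listed. Levels between genes are compared here per transcript length, as FPKM. Rpl41, which encodes the shortest ribosomal protein, had the highest mean over the 9 libraries at 3096 FPKM, followed by Rps26 (2607), Rpl8 (1699), Rpl4 (1668), Rpl23a (1640) and Rpl13 (1631). Of the canonical members, 28 had a mean of at least 1000 FPKM and 5 a mean under 100. The 4 lowest members were Rpl3l (0.473 FPKM), Rpl32l (0.984), Rpl29 (3.63) and Rpl34 (20.7), and the last 2 of these are canonical. Rpl29 and Rpl34 are single subunits of every ribosome, and their entries were far below those of their partners. Of the transcript windows of Rpl34, 5.79% are shared with another annotated gene, and the entry Rpl34-ps1 stood at 0.823 to 1.12 times the Rpl34 value in each library. The part that read assignment plays in these low values was not tested.

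Ribosomal protein transcripts were lower at day 2 than at day 0 in all 3 lines, and at day 4 they stood near the day 0 level in WT and 1KO and below it in 1KO+1CI. At days 0, 2 and 4 the set took 18.6%, 15.2% and 18.5% of the summed FPKM in WT. In 1KO the shares were 17.1%, 15.0% and 17.4%, and in 1KO+1CI they were 17.1%, 15.1% and 15.7%. The 3 day 2 libraries lay together below every other library, and 1KO+1CI at day 4 was the lowest of the other 6.

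**Figure D1:**
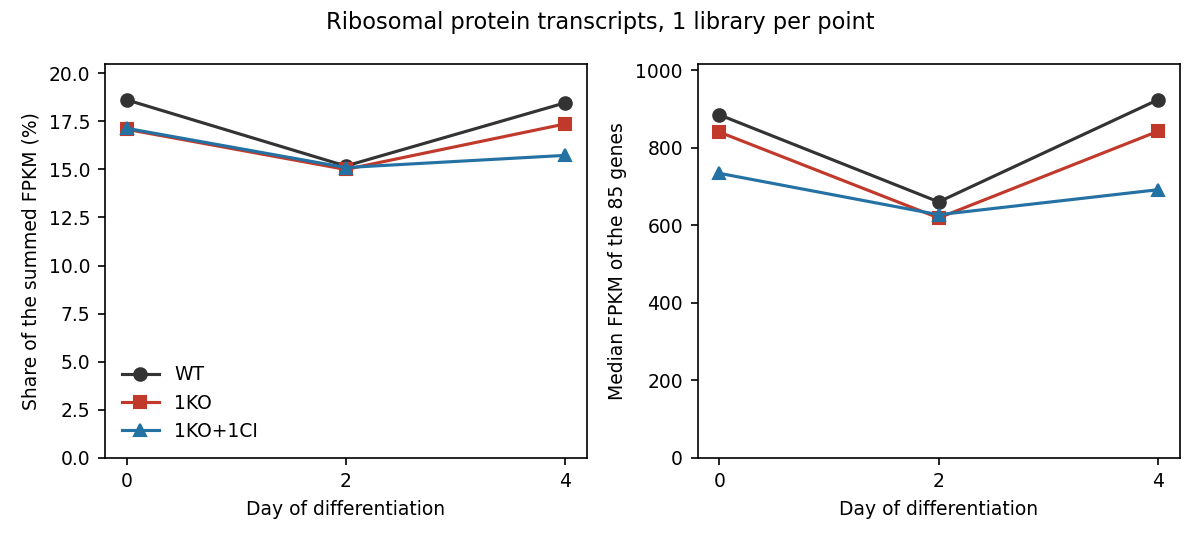
Left, share of the summed FPKM held by the 85 ribosomal protein genes (%), and right, their median FPKM, against day of differentiation for WT (circles), 1KO (squares) and 1KO+1CI (triangles). Each point is 1 library, and the 3 lines meet at 15.0% to 15.2% at day 2 and spread to 15.7% to 18.5% at day 4.

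From day 0 to day 2 the median member differed by -0.33 on the log2(FPKM + 1) scale for WT, -0.31 for 1KO and -0.23 for 1KO+1CI, while the median over all genes was -0.01, 0.00 and 0.03. Members lower by over 0.32 on that scale (a ratio of 5 to 4) numbered 44 of 85 in WT, where 23.5% of all genes were. They numbered 42 in 1KO against 19.3% of all genes, and 26 in 1KO+1CI against 17.4%. With each library scaled to a common sum (TPM), the counts were 33 in WT (24.4% of all genes), 24 in 1KO (18.2%) and 12 in 1KO+1CI (19.0%), with member medians of -0.26, -0.22 and -0.19 and all-gene medians of 0.04, 0.09 and 0.08. For 55 of 85 members every day 2 library lay below every day 0 library, compared with 16.2% of all genes.

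In the additive fit 14 members were called lower at day 2 than at day 0 and 1 higher, with 8.11% of all genes called lower and 7.34% higher. The median coefficient was -0.30 over the 85 members against 0.01 over all genes, and all 73 canonical coefficients were negative. Both subunits took part, with a median of -0.33 and 10 of 43 called for the large subunit and of -0.29 and 3 of 30 for the small subunit. The count of calls was less stable than the median. It was 4 without the WT day 0 library, 1 without WT day 2, 24 without WT day 4, 0 without 1KO day 0, 0 without 1KO day 2, 5 without 1KO day 4, 0 without 1KO+1CI day 0, 6 without 1KO+1CI day 2 and 13 without 1KO+1CI day 4, while the median stayed between -0.37 and -0.26. The feeder fibroblast markers fell with the set, 5 of 5 being called lower at day 2 with a median coefficient of -3.05, as did 2 of the 6 ESC markers (median -0.57), and their part in the result was not tested.

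Rps16, a small subunit protein, gave the steepest called canonical coefficient at day 2. Where 3 values follow a gene for a line, here and below, they are in the order of days 0, 2 and 4. Its FPKM in WT was 1295, 733 and 1207, in 1KO it was 1138, 694 and 1290, and in 1KO+1CI it was 892, 700 and 1027. All 3 day 2 values lay below the other 6. The day 2 coefficient was -0.63 ± 0.13 (SE, limma, adjusted p = 0.0191), and the day 4 coefficient against day 2 was 0.72 ± 0.13 (limma, adjusted p = 0.00860). The first call was lost in 4 of the 9 fits that leave out a library (adjusted p up to 0.131 without 1KO day 2) and the second in 2 (up to 0.0673).

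Rps19, the first gene linked to Diamond-Blackfan anaemia, stood at 1123, 693 and 1087 FPKM for WT, 942, 645 and 1037 for 1KO and 813, 668 and 853 for 1KO+1CI. It again had its 3 lowest values at day 2, with coefficients of -0.51 ± 0.12 for day 2 against day 0 (limma, adjusted p = 0.0288) and 0.56 ± 0.12 for day 4 against day 2 (limma, adjusted p = 0.0156). Leaving out a library ended the first call in 6 of 9 fits and the second in 3. A short list of 9 canonical members linked to that anaemia was used, and it does not hold every linked gene. Of these, 3 were called lower at day 2 and 2 higher from day 2 to day 4, with medians of -0.33 and 0.32. In those steps 17.8% and 19.2% of the 73 canonical members and 8.11% and 11.2% of all genes were called.

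RPL5 and RPL11 carry the 5S RNA into the large subunit and, when free, bind MDM2. Rpl11 was at 456, 324 and 458 FPKM for WT, 454, 321 and 425 for 1KO and 401, 295 and 354 for 1KO+1CI. It was called in both steps (-0.48 ± 0.09, adjusted p = 0.0140, and 0.39 ± 0.09, adjusted p = 0.0209, limma), and these calls were lost in 4 and 3 of 9 fits without 1 library. Rpl5 had coefficients of -0.25 (adjusted p = 0.19) and 0.29 (limma, adjusted p = 0.115) and did not pass.

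All 4 X-linked members had negative coefficients at day 2 and positive ones from day 2 to day 4. Rpl39 passed in both steps (-0.40, adjusted p = 0.0242, and 0.32, adjusted p = 0.0399, limma). Rpl10 passed only in the second step (0.47, limma, adjusted p = 0.0261), its first coefficient being -0.38. Rpl36a and Rps4x did not pass in either step, with coefficients of -0.26 and -0.20 and of 0.27 and 0.18. Rps6, the S6 kinase substrate of the small subunit, had a coefficient of -0.29 at day 2 and did not pass. Rpl38, a protein linked to the translation of Hox mRNAs, did (-0.50 ± 0.12, limma, adjusted p = 0.0302).

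**Figure D2:**
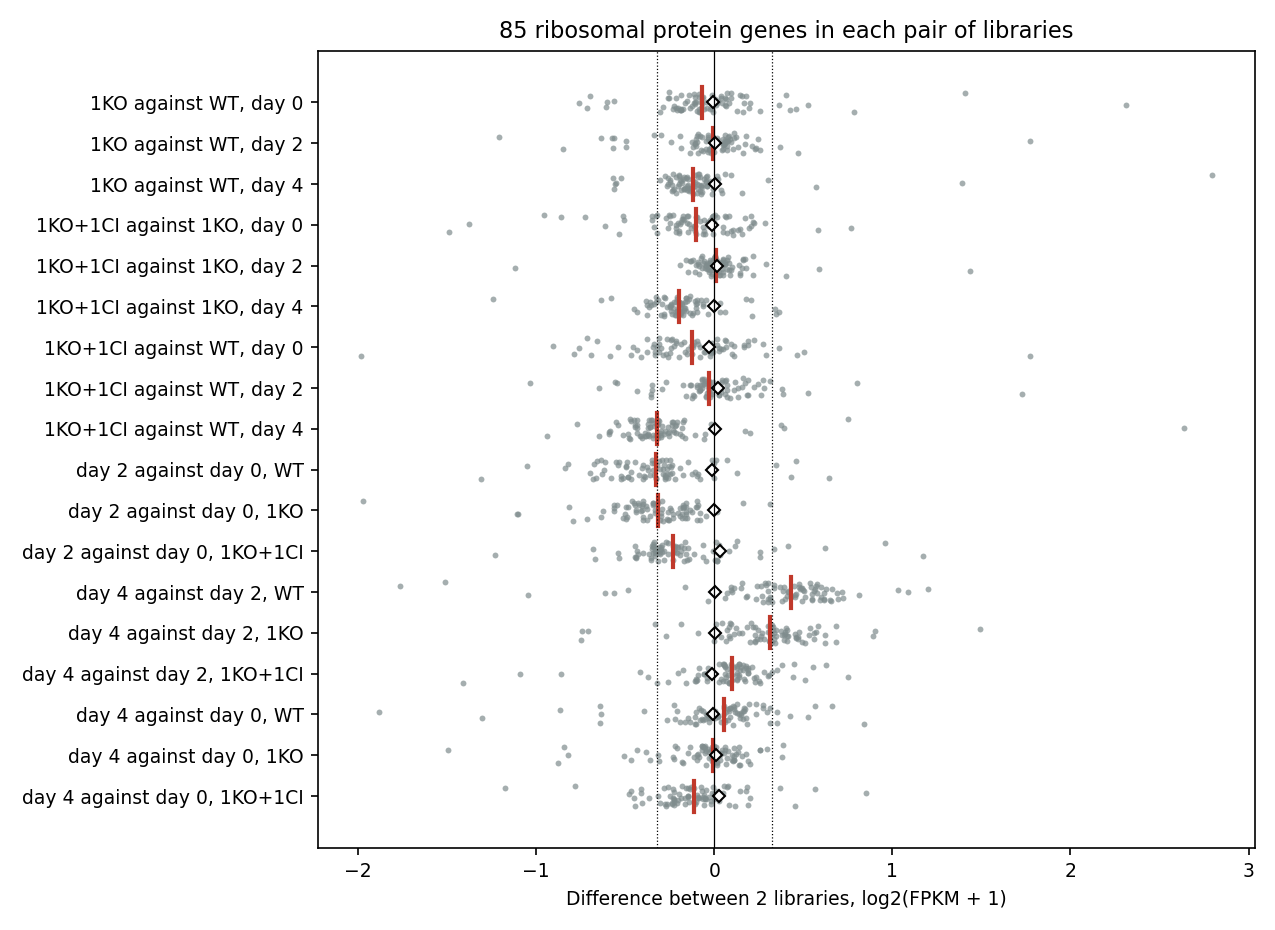
Differences in log2(FPKM + 1) between 2 libraries for each of the 85 genes (grey points) in the 18 pairs named on the left. Red bars are medians over the 85 genes, open diamonds medians over all 15074 genes, and dotted lines mark differences of 0.32 either way, with medians running from -0.33 (WT, day 2 against day 0) to 0.43 (WT, day 4 against day 2).

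From day 2 to day 4 the median member was higher by 0.43 for WT, 0.31 for 1KO and 0.10 for 1KO+1CI, with medians over all genes of 0.01, 0.01 and -0.01. Higher by over 0.32 were 54 of 85 members in WT (23.4% of all genes), 42 in 1KO (23.6%) and 9 in 1KO+1CI (19.9%). With TPM they numbered 35 (19.7%), 22 (22.5%) and 7 (21.4%), with member medians of 0.27, 0.23 and 0.06 and all-gene medians of -0.12, -0.07 and -0.05. The smaller step in 1KO+1CI is a difference between single libraries, and the interaction of line and day cannot be tested with 1 library per condition. For 49 of 85 members all day 4 values lay above all day 2 values, against 20.1% of all genes.

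The additive fit called 16 members higher and 2 lower from day 2 to day 4, with 11.2% of all genes called higher and 11.7% lower. The median coefficient was 0.28 against 0.01 over all genes. Besides Rps16, Rps19, Rpl11, Rpl10 and Rpl39, the 16 included Rpl22l1 (1.01), Rps14 (0.54), Rps2 (0.53), Rpl9 (0.49) and Rps27l (0.40). The count was 20 without WT day 0, 2 without WT day 2, 11 without WT day 4, 12 without 1KO day 0, 1 without 1KO day 2, 1 without 1KO day 4, 8 without 1KO+1CI day 0, 11 without 1KO+1CI day 2 and 13 without 1KO+1CI day 4, and the median stayed between 0.22 and 0.36. The feeder markers did not rise with the set in this step (0 of 5 called higher, median -0.10). Of the 7 primitive endoderm markers, 3 were called higher and none lower. Of the 6 ESC markers, 4 were called lower (median -1.22), and their part in the result was not tested.

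Day 4 and day 0 were close. The median difference was 0.06 for WT, -0.01 for 1KO and -0.11 for 1KO+1CI, and the WT value turned to -0.034 with TPM and to -0.037 with a common sum over genes outside the set. The fit called 0 members higher and 2 lower, where 11.3% and 12.3% of all genes were called, and the median coefficient was -0.02. At an unadjusted limma p under 0.05 there were 5 members in either direction. Day 4 lay wholly below day 0 for 6 of 85 members, against 17.6% of all genes. Over the same interval 4 of 6 ESC markers (median -2.62) and 5 of 5 feeder markers (median -3.14) were called lower. The 2 called genes were the germ-cell paralogs Rpl39l and Rpl10l.

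Rpl39l, the only member called between 1KO and WT, was several times higher in both Dnmt1-/- lines at all 3 days. At day 0 it stood at 10.5 FPKM for WT, 56.3 for 1KO and 38.5 for 1KO+1CI. At day 2 the values were 14.9, 53.3 and 51.7, and at day 4 they were 3.67, 31.4 and 28.0. The lowest mutant value, in 1KO+1CI at day 4, was above the highest WT value, at day 2.

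The coefficient of 1KO against WT was 2.29 ± 0.20 (limma, adjusted p = 0.00473). It kept its size in every fit that left out a library (2.02 to 2.50), but the adjusted p rose above the threshold without 1KO day 0 (0.0620) and without 1KO day 4 (0.0549). 1KO+1CI was also above WT, by 2.05 ± 0.20 (limma, adjusted p = 0.00527), and this call held in all 9 such fits. Between 1KO+1CI and 1KO the coefficient was -0.25 ± 0.20 and did not pass (limma, adjusted p = 1.0). Counting error was small beside these gaps. If 1 step is 1 read and the shorter transcript (550 bases) was the one counted, the WT day 4 value rests on 42 reads with an exact Poisson 95% interval of 2.62 to 4.92 FPKM, and the 1KO+1CI day 4 value on 310 reads (24.97 to 31.3), both covering counting error only.

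Relative to its parent gene, Rpl39l was at 0.808% to 3.94% of the Rpl39 FPKM for WT, 7.19% to 16.7% for 1KO and 8.06% to 17.4% for 1KO+1CI. It followed a different course from the set. From day 2 to day 4 it fell by 1.12 on the log2 scale (SE 0.20, limma, adjusted p = 0.00811), a call kept in all 9 fits without a library. From day 0 to day 4 it fell by 0.86 (limma, adjusted p = 0.0188), and that call was lost without 1KO day 0 (0.0865). The gene spans chr16:10170226-10174911 on the plus strand of GRCm38.

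Rpl10l, a copy of the X-linked Rpl10 with 84.8% coding identity at chr12:66283379-66284401 (minus strand), moved with day and not measurably with line. It stood at 20.5, 32.7 and 10.8 FPKM at days 0, 2 and 4 for WT, at 22.8, 28.5 and 16.6 for 1KO and at 20.4, 32.1 and 14.5 for 1KO+1CI. Day 2 was highest and day 4 lowest in every line, and the 3 days did not overlap. It was higher at day 2 than at day 0 by 0.53 ± 0.14 (limma, adjusted p = 0.0424), a call lost in 7 of 9 fits without a library. It fell by 1.12 from day 2 to day 4 (SE 0.14, limma, adjusted p = 0.00311), which held in all 9 fits, and by 0.59 from day 0 to day 4 (limma, adjusted p = 0.0221), which was lost in 3. The parent Rpl10 ran the other way, with its 3 lowest values, 998 to 1061 FPKM, at day 2. If 1 step is 1 read, the Rpl10l values rest on 233 to 813 reads.

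Rpl22l1, the paralog of Rpl22, followed the set with larger steps. It was at 134, 64.0 and 137 FPKM for WT, at 129, 59.6 and 169 for 1KO and at 70.8, 52.0 and 71.1 for 1KO+1CI. The transgenic line had the lowest value at each day. The coefficient was -0.86 ± 0.18 for day 2 against day 0 (limma, adjusted p = 0.0179, lost in 4 of 9 fits without a library) and 1.01 ± 0.18 for day 4 against day 2 (limma, adjusted p = 0.00786, kept in all 9). The line coefficients, -0.76 against 1KO (adjusted p = 1.0) and -0.71 against WT (limma, adjusted p = 0.0658), did not pass. Without 1KO+1CI day 2 the latter was -0.96 with an adjusted p of 0.0388. Relative to Rpl22, the paralog stood at 41.4% to 74.0% for WT, 43.9% to 87.4% for 1KO and 37.0% to 45.1% for 1KO+1CI.

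**Figure D3:**
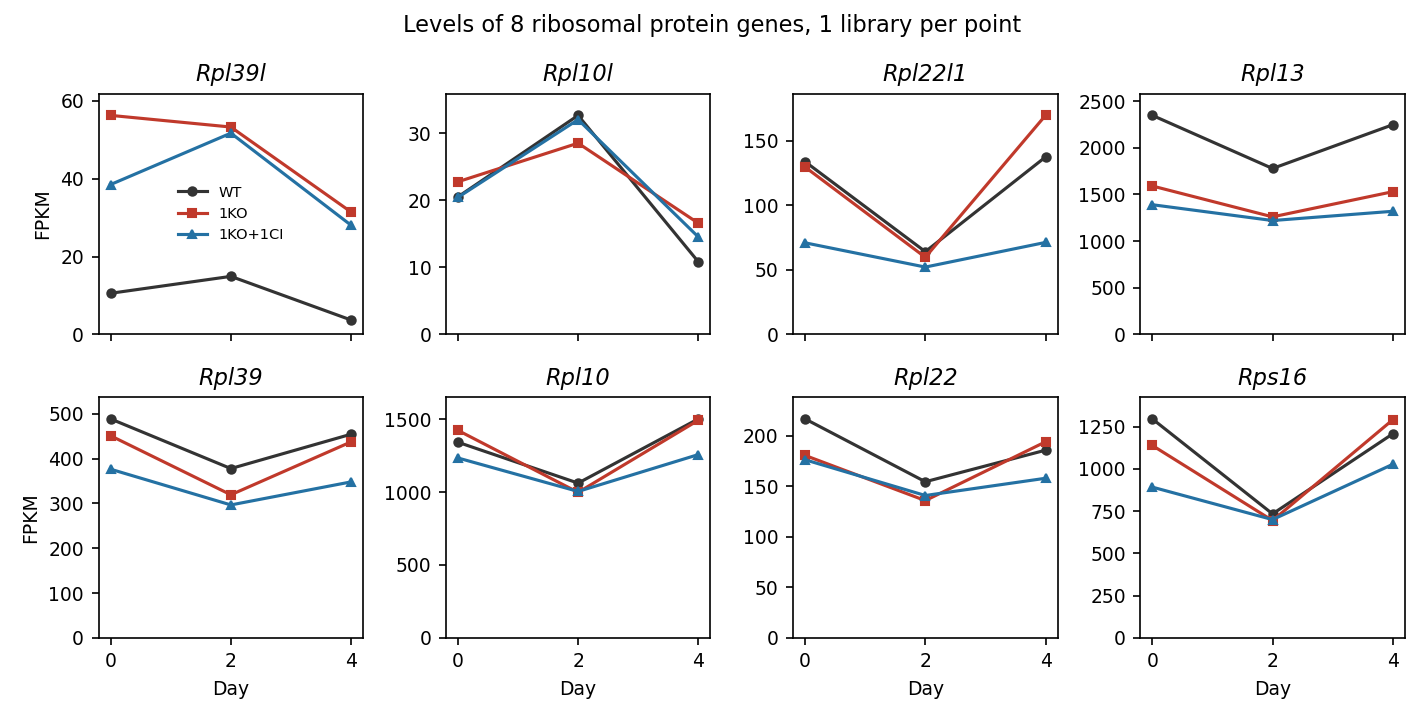
FPKM against day of differentiation for Rpl39l, Rpl10l and Rpl22l1 (top), their parents Rpl39, Rpl10 and Rpl22 (bottom), and Rpl13 and Rps16 (right), in WT (circles), 1KO (squares) and 1KO+1CI (triangles), 1 library per point. Rpl39l runs from 3.67 to 14.9 in WT and from 28.0 to 56.3 in the other lines, and Rpl13 from 1778 to 2348 in WT and from 1220 to 1591 in the others.

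Of the other paralogs and related genes, only Rps27l was called in any contrast, and Rpl3l and Rpl32l stood near the limit of counting. Rpl36al, a retained copy of the X-linked Rpl36a with 87.9% coding identity, ranged from 292 to 464 FPKM. In every line it was higher at day 2 than at day 0, where the set was lower. Rps27l, a p53 target, ranged from 329 to 492 FPKM and was called higher only from day 2 to day 4 (0.40, limma, adjusted p = 0.0408, lost in 8 of 9 fits without a library). Rps4l ranged from 254 to 391.8 and Rpl7l1 from 80.0 to 115 FPKM, without a call. Rps19bp1 ranged from 30.5 to 44.4 and Rpl37rt from 31.0 to 48.6. Rpl3l (0.178 to 0.852 FPKM) and Rpl32l (0.403 to 1.80) rest on 2 to 15 reads per library if 1 step is 1 read. Rps27rt has the coding sequence of Rps27, base for base, and stood at 1.254 to 1.256 times the Rps27 FPKM in all 9 libraries, so these entries cannot be told apart.

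Line calls among the members were few. Counts of calls and of members without overlap stood near or below the shares of all genes. Of the 73 canonical coefficients, 57 were negative in 1KO against WT (median -0.06) and 67 in 1KO+1CI against WT (median -0.16). The medians over all genes were 0.005 and 0.003, and the share of all genes with a negative coefficient is not given here. In 1KO against WT the fit called 1 member higher, Rpl39l, and 0 lower, with 0.710% and 1.15% of all genes called, and the median over members was -0.05. At an unadjusted limma p under 0.05 there were 6 members, a count without the share of all genes beside it and not read as a result. For 2 of 85 members, Rpl13 among them, the 3 1KO values all lay below the 3 WT values, as for 5.15% of all genes. The single-library medians were -0.07, -0.01 and -0.12 at days 0, 2 and 4.

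1KO+1CI against 1KO gave no call among the members in either direction, and 0.00663% and 0% of all genes were called higher and lower. An unadjusted limma p under 0.05 was passed by 3 of 85 members, again without the share of all genes and not read as a result. The median coefficient was -0.09, and the single-library medians were -0.10, 0.01 and -0.20. Rps29, a small subunit protein, was the 1 member lower in every 1KO+1CI library than in every 1KO library, against 2.01% of all genes.

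In 1KO+1CI against WT the fit called 1 member higher, Rpl39l, and 2 lower, Rpl13 among them, with 1.80% and 2.14% of all genes called, and the median over members was -0.15. For 7 of 85 members (among them Rpl13, Rpl39, Rps27, Rps27rt, Rps28 and Rps29) all 1KO+1CI values lay below all WT values, against 6.52% of all genes, and 2 of the 7, Rps27 and Rps27rt, have the same coding sequence. By day, the median member differed by -0.13, -0.03 and -0.32. Members lower by over 0.32 numbered 19 of 85 at day 0 (22.1% of all genes), 9 at day 2 (15.4%) and 42 at day 4 (17.1%). The day 4 count fell to 17 with TPM (14.9% of all genes) and to 25 with a common sum over genes outside the set (13.8%), where the member medians were -0.21 and -0.26. At day 4, 79 of 85 members were lower in the transgenic line than in WT by any amount. The median over all genes was 0.005 in that pair and 0.10 with TPM, and the share of all genes lower by any amount is not given here. The primitive endoderm markers summed to 118 FPKM in the transgenic line at day 4 against 55.6 in WT and 71.5 in 1KO. Col4a1 (46.7 FPKM) and Lamb1 (62.7) held most of the 118, and Foxa2, the next highest, was at 2.46. Over all days, 4 of 7 primitive endoderm markers were called higher in 1KO+1CI than in WT (median 0.62), as were 1 of 5 feeder markers (Col1a2, with all 5 coefficients positive and a median of 0.91) and 1 of 6 ESC markers (Klf4). Their part in the result was not tested.

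Rpl13, a large subunit protein, was at 2348, 1778 and 2248 FPKM for WT, 1591, 1260 and 1529 for 1KO and 1390, 1220 and 1319 for 1KO+1CI. The lowest WT value was above the highest mutant value. The coefficient against WT was -0.69 ± 0.12 in 1KO+1CI (limma, adjusted p = 0.0247) and -0.54 ± 0.12 in 1KO (limma, adjusted p = 0.0733). The first call was lost in 7 of 9 fits without 1 library, with coefficients of -0.75 to -0.65 and adjusted p-values up to 0.146. Of the 100-base windows of Rpl13 transcripts (chr8:123102350-123105244, plus strand), 78.9% also occur in another annotated gene.

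Members were compared with the set by how steady their distance from it was over the libraries. The deviation of a member from the median over canonical members had an SD over the 9 libraries of 0.13 on the log2 scale for the median member. It was under 0.1 for 25 members and over 0.3 for 14. Rpl39l (1.36) and Rpl10l (0.70) had the largest SD, followed by Rpl30 (0.68), Rpl17 (0.68) and Rps27a (0.50). None of the last 3 was called in any contrast.

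Rpl17 was at 215, 227 and 203 FPKM for WT, 574, 146 and 203 for 1KO and 204, 397 and 149 for 1KO+1CI, so that 1KO day 0 and 1KO+1CI day 2 stood apart. Rpl30 ran from 37.3 (1KO+1CI day 0) to 150 (WT day 0), and Rps27a, which encodes ubiquitin fused to RPS27A, from 223 to 590 FPKM. Rpl7a, in the same way, ran from 388 to 974. Of the 100-base windows, 42.4% are shared with another gene for Rpl17, 57.8% for Rpl30, 53.7% for Rps27a and 73.5% for Rpl7a. Over the 73 canonical members, the Spearman correlation of this SD with the percentage of shared windows was 0.07. The median SD was 0.115 for the 20 canonical members with most of their windows shared and 0.118 for the other 53. The part that shared reads play in these spreads was not tested.

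**Figure D4:**
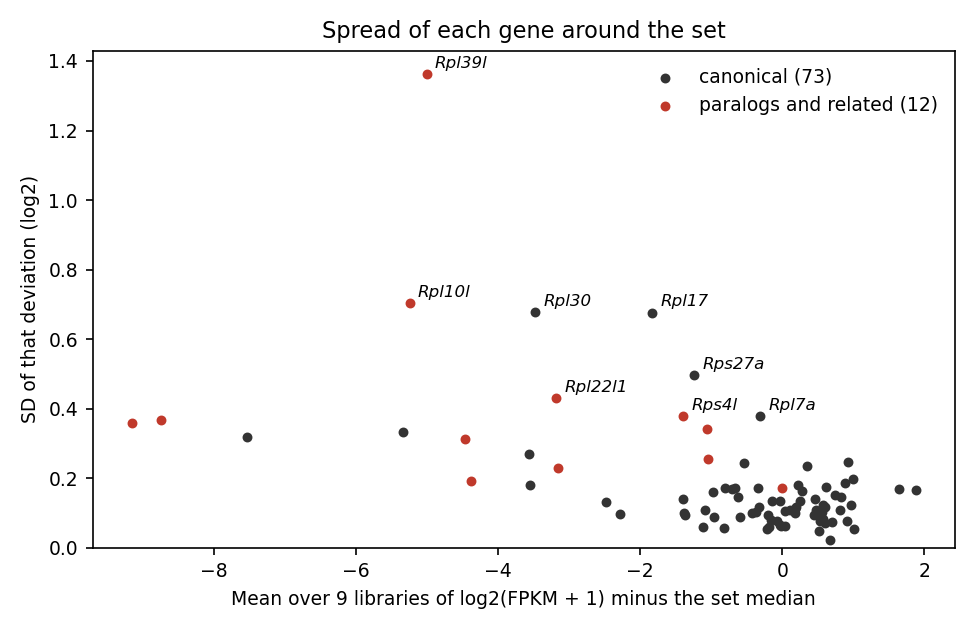
SD over 9 libraries (log2) of the deviation of each gene from the median over canonical members, against the mean of that deviation, for 73 canonical members (black) and 12 paralogs and related genes (red). The 8 named genes have the largest SD, led by Rpl39l at 1.36, and most canonical members lie near 0.12.

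Ribosomal protein genes whose symbols fall outside the rule ran in the same direction with day, with 1 call among the 5 described here. Rplp1, a protein of the stalk that recruits translation factors, was called lower at day 2 (-0.50 ± 0.14, limma, adjusted p = 0.0465). Its stalk partners Rplp0 and Rplp2 had coefficients of -0.09 and -0.30, Rpsa one of -0.04 and Fau one of -0.18, and these did not pass. From day 2 to day 4 the coefficients were 0.36 for Rplp0, 0.39 for Rplp1, 0.06 for Rplp2, 0.05 for Rpsa and 0.31 for Fau, none of them past the threshold (limma, adjusted p of 0.0728 or more), while Rplp0, Rplp1 and Fau had an unadjusted limma p under 0.05.

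Genes listed for the 5′ TOP motif that have no Rpl or Rps symbol ran in the same direction with day. Of 17 translation factor and related genes, 4 were called lower at day 2 (Eef2, Eif3e, Eif3f and Eif4b) and 0 higher, with a median of -0.22, and 4 were called higher from day 2 to day 4 (median 0.21), against 8.11% of all genes called lower and 11.2% called higher in those steps. Of 8 snoRNA host transcripts, 6 were called lower at day 2 with a median of -0.62, and 4 higher from day 2 to day 4 (median 0.47). Gas5, the host with the steepest coefficient at day 2 (-1.13, limma, adjusted p = 0.00140), was at 39.2, 19.0 and 21.3 FPKM in WT and its call against day 0 remained at day 4 (-0.98, limma, adjusted p = 0.000949).

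The other lists were flatter in their medians at day 2. Of 27 ribosome biogenesis genes, 1 was called lower at day 2, with a median of 0.01. Of 78 mitochondrial ribosomal protein genes, 2 were called higher and 0 lower at day 2, with a median of 0.02. The 78 oxidative phosphorylation subunits gave 2 higher and 5 lower with a median of -0.10. Of all genes, 7.34% were called higher and 8.11% lower at day 2. From day 2 to day 4 these lists, in the same order, gave 0, 5 and 6 higher and 3, 0 and 2 lower (11.2% and 11.7% of all genes). For day 4 against day 0 they gave 1, 9 and 3 higher and 3, 1 and 4 lower (11.3% and 12.3% of all genes). Of 14 regulators, Myc, which activates many ribosomal protein genes, was called higher at day 2 (1.19, limma, adjusted p = 0.00819) and lower from day 2 to day 4 (-0.71, limma, adjusted p = 0.0334), the reverse of the set. Myc stood at 9.27, 33.6 and 16.2 FPKM for WT, 26.0, 42.3 and 25.9 for 1KO and 16.4, 37.5 and 27.3 for 1KO+1CI. Eif4ebp1 was also called higher at day 2 (0.46) and Akt1 lower (-0.48), and from day 2 to day 4 Mycl was called higher (1.55) and Gabpa (-0.47) and Tsc2 (-0.72) lower. Mycn did not pass in either step. It stood at 100, 81.8 and 83.9 FPKM for WT, 106, 90.8 and 53.2 for 1KO and 102, 98.6 and 65.0 for 1KO+1CI. Between day 0 and day 4 Mycn was called lower (-0.63). Larp1, whose protein binds TOP mRNAs, ranged from 63.3 to 75.5 FPKM over the 9 libraries.

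**Figure D5:**
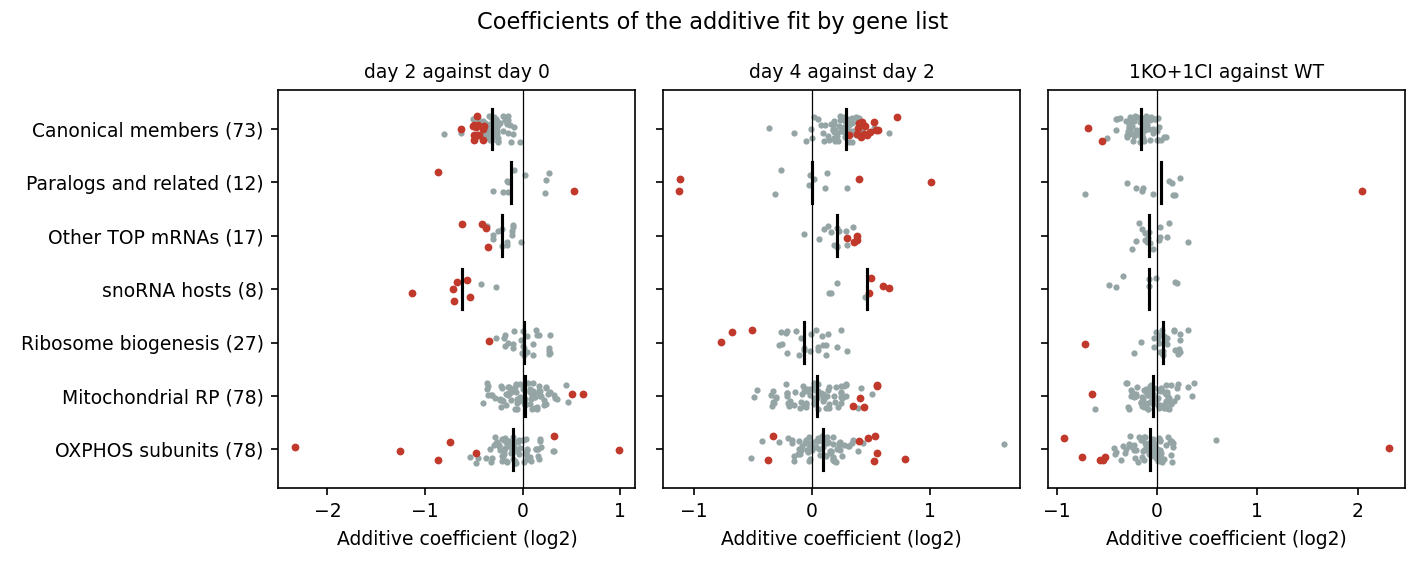
Coefficients of the additive fit (log2) for 7 gene lists, with the number of genes in parentheses, in 3 comparisons. Red points are genes with an adjusted p under 0.05, grey points all others, and black bars list medians. At day 2 the canonical members (-0.31), other TOP mRNAs (-0.22) and snoRNA hosts (-0.62) have medians below 0, while ribosome biogenesis (0.01) and mitochondrial ribosomal protein genes (0.02) lie at 0.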

How the data were processed

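Poly(A) RNA-seq was made by the authors from 9 mouse J1 ESC samples, 3 lines by 3 days. Per the paper's methods and the processing notes, reads were trimmed with Trim Galore, aligned to mm10 with HISAT2 and counted with HOMER; SAMtools is also named. Not given in the sources used here were software versions, the annotation release, strandedness and the treatment of multi-mapping reads. In the deposited FPKM table were 15095 entries, and 21 whose name was a date or a number and not a gene symbol were left out. The deposited repeat table was not used. FPKM carries no replicate error and is relative to each library's total.

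Values were analysed as log2(FPKM + 1). limma 3.58.1 in R 4.3.3 fitted line plus day, with a mean-variance trend, to all 15074 genes in 9 libraries (4 residual degrees of freedom). The fit was also run on simulated data with equal, independent noise and no interaction of line and day. That run cannot show how calls behave where lines and days depart from additivity. Pairs of single libraries were described by differences of over 0.32 (log2). Depth was estimated from the whole-number spacing of FPKM times length in genes with 1 transcript, where a step may be a read or a fragment. Positions, coding sequences and 100-base windows came from GENCODE M21 (GRCm38) and promoters from RefSeq. The named genes were the 6 highest and 4 lowest by mean FPKM, the 3 highest and 3 lowest coefficients of each contrast, the 5 with the largest SD of deviation, and fixed lists; Rps16's and Rps19's promoters, Rpl9, Rps14, Rps2, Rps28, Rps29, Rps27, Rpl21 and Rps12 were chosen after their values were seen. The members and all gene lists were chosen with earlier results of these data known. Alternatives varied the pseudocount (0.1, 0.01), a filter of 1 FPKM, the scaling, the trend, the fold, and the libraries, days and lines included. Some genes that the rule names are not reported here.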

Additional observations from a re-analysis of the deposited data

Results flagged for a closer look

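Some members differed by over 0.32 on the log2 scale in one direction at one day or in one line and by over 0.32 in the opposite direction at another under the same contrast. Each such difference rests on single libraries and was not tested. The values below are gaps between the highest and the lowest of the 3 differences, on the log2(FPKM + 1) scale.

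Comparing lines, for 1KO against WT the gap was 2.04 for Rpl17 (1.41 at day 0, -0.63 at day 2), 2.00 for Rpl30 (1.39 at day 4, -0.61 at day 0), 1.34 for Rpl29 (0.78 at day 0, -0.56 at day 4), 0.99 for Rpl7a (0.47 at day 2, -0.52 at day 4) and 0.94 for Rpl34 (0.37 at day 2, -0.57 at day 4). For 1KO+1CI against 1KO it was 2.93 for Rpl17 (1.44 at day 2, -1.49 at day 0), 1.96 for Rpl30, 1.46 for Rpl7a, 1.16 for Rpl21 and 1.07 for Rpl29. For 1KO+1CI against WT it was 2.74 for Rpl30 (0.75 at day 4, -1.98 at day 0), 1.31 for Rpl34, 1.247 for Rpl17, 1.09 for Rpl32l and 0.83 for Rpl37rt.

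Between days, the gap among lines was 2.93 for Rpl17 and 2.01 for Rpl30 from day 0 to day 2. From day 2 to day 4 it was 1.95 for Rpl30, 1.89 for Rpl17, 1.46 for Rpl7a, 1.02 for Rps27a, 0.93 for Rpl32l and 0.71 for Rps12. From day 0 to day 4 it was 2.74 for Rpl30, 1.34 for Rpl29, 1.16 for Rpl21 and 1.09 for Rpl32l. Rpl17 and Rpl30 met this criterion in 5 and 6 of the 6 contrasts. None of these genes was called in the additive fit.

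The median over the 85 members also changed sign within 2 contrasts. For 1KO+1CI against 1KO it was 0.01 at day 2 and -0.20 at day 4, a gap of 0.20, and for day 4 against day 0 it was 0.06 in WT and -0.11 in 1KO+1CI, a gap of 0.17. The WT value was -0.034 with TPM and -0.037 with a common sum over genes outside the set, so the second change of sign rests on the scaling.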

How the results depend on the processing

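No paired analysis was possible because each condition has 1 library, so there is no replicate number to block on. The additive fit itself compares lines within days and days within lines. Of 39 calls on single members, 4 held in each of the 9 fits that left out a library and 35 were lost in at least 1. Smaller fits have fewer residual degrees of freedom, and the cause of other changes was not tested. FPKM values near 1 limit what can be said of Rpl3l and Rpl32l.

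Leaving out each library in turn gave these ranges. For 1KO against WT, 0 to 1 members were called higher and 0 to 1 lower, with a median of -0.11 to -0.016. For 1KO+1CI against 1KO the counts stayed at 0, with a median of -0.16 to -0.03. For 1KO+1CI against WT, 1 was called higher and 0 to 1 lower, with a median of -0.23 to -0.09. For day 2 against day 0, 0 to 1 were higher and 0 to 24 lower (median -0.37 to -0.26). For day 4 against day 2, 1 to 20 were higher and 2 to 3 lower (median 0.22 to 0.36). For day 4 against day 0, 0 were higher and 0 to 3 lower (median -0.09 to 0.05).

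For 1KO against WT, the count of members called lower was 0 as reported, but 1 with a pseudocount of 0.1 or 0.01, with median-ratio scaling or without the trend, and 2 with the filter of 1 FPKM, with a common sum (TPM) or with a common sum over other genes. The count called higher was 0 without day 0, without day 2 and among canonical members. For 1KO+1CI against WT it was likewise 0 without day 0, without day 2 and among canonical members, and the count called lower was 0 without day 0, day 2, day 4 or the 1KO line. For day 2 against day 0, the count called higher was 0 without the trend, without 1KO, without 1KO+1CI and among canonical members, and the count called lower was 0 without the 1KO line and 1 without the 1KO+1CI line. For day 4 against day 2, 26 were called higher with the filter of 1 FPKM, 8 without day 0, 0 without 1KO and 2 without 1KO+1CI, and the count called lower was 0 without 1KO and among canonical members. For day 4 against day 0, the count called lower was 4 without WT and 0 without 1KO, without 1KO+1CI and among canonical members.

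A common sum (TPM) gave a median coefficient of -0.22 for day 2 against day 0. Between single libraries it gave medians of -0.061 for 1KO against WT at day 4, of -0.26 in WT and -0.22 in 1KO for day 2 against day 0, and of -0.034 in WT for day 4 against day 0. A common sum over other genes gave -0.14 for 1KO against WT at day 0, -0.25 in 1KO for day 2 against day 0 and -0.037 in WT for day 4 against day 0, the WT value for day 4 against day 0 being 0.06 as reported and so turned by both. Median-ratio scaling gave -0.29 in 1KO+1CI for day 2 against day 0, and the mean over members gave -0.013 for 1KO against WT at day 0.

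With folds of 1.5 and 2, members lower in 1KO+1CI than WT numbered 7 and 1 at day 0, 2 and 1 at day 2, and 6 and 0 at day 4. Members lower at day 2 than day 0 numbered 13 and 2 in WT, 8 and 3 in 1KO, and 3 and 1 in 1KO+1CI. Members higher at day 4 than day 2 numbered 18 and 3 in WT, 7 and 1 in 1KO, and 2 and 0 in 1KO+1CI. At the difference of 0.32 used in the report, TPM gave 17 at day 4 for 1KO+1CI against WT, 24 in 1KO and 12 in 1KO+1CI for day 2 against day 0, and 35 in WT and 22 in 1KO for day 4 against day 2. A common sum over other genes gave 25 for 1KO+1CI against WT at day 4.

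Without the 20 most abundant other genes in the sum, the share of the members was 20.5%, 16.6% and 20.3% at days 0, 2 and 4 in WT, 18.8%, 16.4% and 19.1% in 1KO, and 18.9%, 16.5% and 17.2% in 1KO+1CI. Canonical members alone held 14.6%, 14.5% and 14.5% of the sum at day 2 in WT, 1KO and 1KO+1CI.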
